A study of Mus musculus with 69 samples.

Results

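The nucleus accumbens of control mice was described gene by gene, from the RNA of 8 libraries and from a deposited list of regions that carry dimethylated lysine 79 of histone H3 (H3K79me2). Of the 69 libraries of the series, 17 belonged to this material by their labels: 8 RNA libraries of male mice of the Standard condition, labelled GFP (replicates 1 to 8), and 9 H3K79me2 chromatin libraries of male mice of the Standard condition, for which the labels give no genotype. Standard is the control condition of a study of early life stress (ELS), and the other libraries were ELS mice, mice with Dot1l overexpression or knockdown, and chromatin inputs. The labels give no age or strain, do not say which vector or cell type carried GFP, and do not tie RNA libraries to chromatin libraries, so RNA and mark were joined gene by gene and not animal by animal. The joined set held 21255 protein-coding nuclear genes. No groups were compared, and the peak list of the ELS condition is cited only for its number of peaks on the X chromosome.

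H3K79me2 is deposited by DOT1L, the only well established methyltransferase for this lysine in mammals, which acts with partners of the transcription elongation machinery. The mark is known from the first part of the body of transcribed genes, downstream of the start site, and it lies on the globular face of the nucleosome and not on the histone tail. The nucleus accumbens is the ventral part of the striatum. Most of its neurons are GABAergic medium spiny neurons, of a D1 type (dopamine receptor Drd1, with dynorphin and substance P) and a D2 type (Drd2, Adora2a and enkephalin), and interneurons, astrocytes, oligodendrocytes, microglia and vessels make up the rest.

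A gene was called marked when the list placed at least 1 distinct peak in its promoter within 3 kb of its start or in its body. RNA is given in counts per M (CPM, scaled by TMM factors), as the lowest, median and highest of the 8 libraries, and a gene was called detected from 10 counts summed over the libraries. CPM is not divided by transcript length, so between genes a value per kb of genomic span is given as well. Counted reads ranged from 0.314 to 9.8 M per library, replicates 1, 4 and 5 being under 1 M, and rank correlations between libraries across genes ranged from 0.779 to 0.913. In each library the summed CPM of 17 medium spiny neuron markers lay between 1790.3 and 4357, while 10 hepatocyte markers summed to between 0 and 8.87. The 12 astrocyte markers summed to between 1806 and 3475. The 8 cortical excitatory neuron markers summed to between 125.7 and 319.3, and the 8 D1-type markers to between 53.9 and 175.1. The labels do not say that the libraries came from separate animals, and in bulk tissue a low level may mean fewer cells of a type or less RNA per cell, which cannot be told apart.

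The list held 117819 distinct peaks with a median width of 512 bp and the authors' fold enrichments from 1.29 to 6.37. It placed peaks in 8678 of 21255 genes, 40.8%. Of 14438 detected genes 8104 were marked, which is 56.1%, and of 6817 genes not detected 574 were marked, which is 8.42%. A marked gene had a median of 5 peaks with a summed length of 5.21 kb, and 5112 genes, 24.1% of all genes, had a peak within 1 kb of the start. The median CPM was 15.6 for marked detected genes and 2.26 for unmarked ones. Per kb of genomic span these medians were 0.436 and 0.099 CPM.

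The marked share was higher in every successive decile of CPM, from 10.6% of 1443 genes in the lowest decile through 57.1% in decile 5 to 90.2% of 1444 genes in the highest. The Wilson 95% intervals were 9.12 to 12.3% for the lowest decile and 88.6 to 91.7% for the highest, and they cover counting error only. In the top quintile 87.3% of genes were marked, and the same value taken from each library alone ranged from 81.1 to 88.5% (SD 2.67, n = 8). In the lowest quintile the share was 16.0%, with a range of 14.5 to 30.4% over single libraries (SD 5.04). This share depended on what was counted: it was 5.92% with detection from 1 count, 49.7% from 100 counts and 6.13% with peaks placed in 1 gene only. The lowest and highest quintiles did not overlap in any library.

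**Figure D1:**
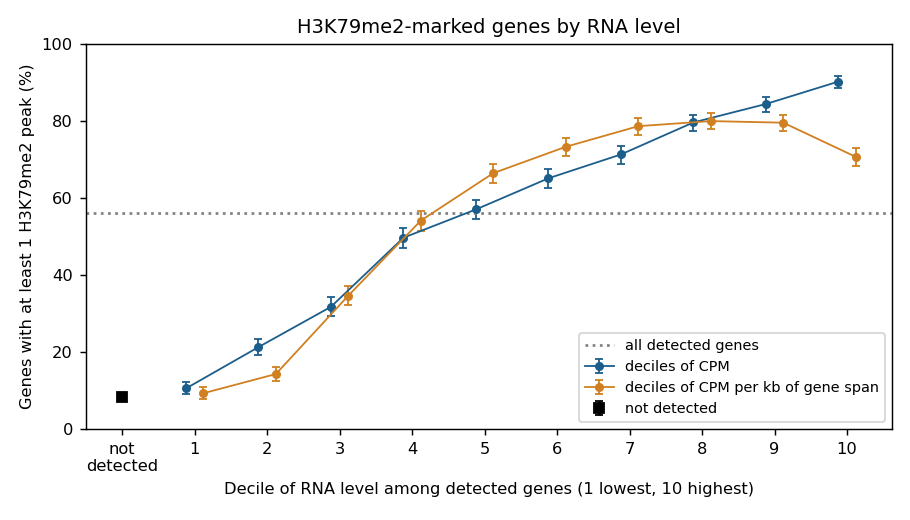
Percent of genes with at least 1 H3K79me2 peak (y axis) for genes not detected and for each decile of RNA level among detected genes (x axis), by CPM (blue) and by CPM per kb of genomic span (orange); bars are Wilson 95% intervals and the dotted line is all detected genes. By CPM the share climbs from 10.6% to 90.2%, while per kb of span it levels off near 80.0% and falls to 70.7% in the highest decile.

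Per kb of genomic span the order held only up to decile 8. The share was 9.36% in the lowest decile, 80.0% in decile 8, 79.6% in decile 9 and 70.7% in the highest, whose genes had a median span of 10.6 kb against 27.6 kb for all detected genes. Among the shortest quintile of detected autosomal genes, up to 9.86 kb long, 62.0% of genes in the top quintile of CPM were marked. Among the longest quintile, above 82.8 kb, that share was 90.5%. In the lowest quintile of CPM the order was the other way, with 25.3% of the shortest and 12.1% of the longest genes marked.

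**Figure D2:**
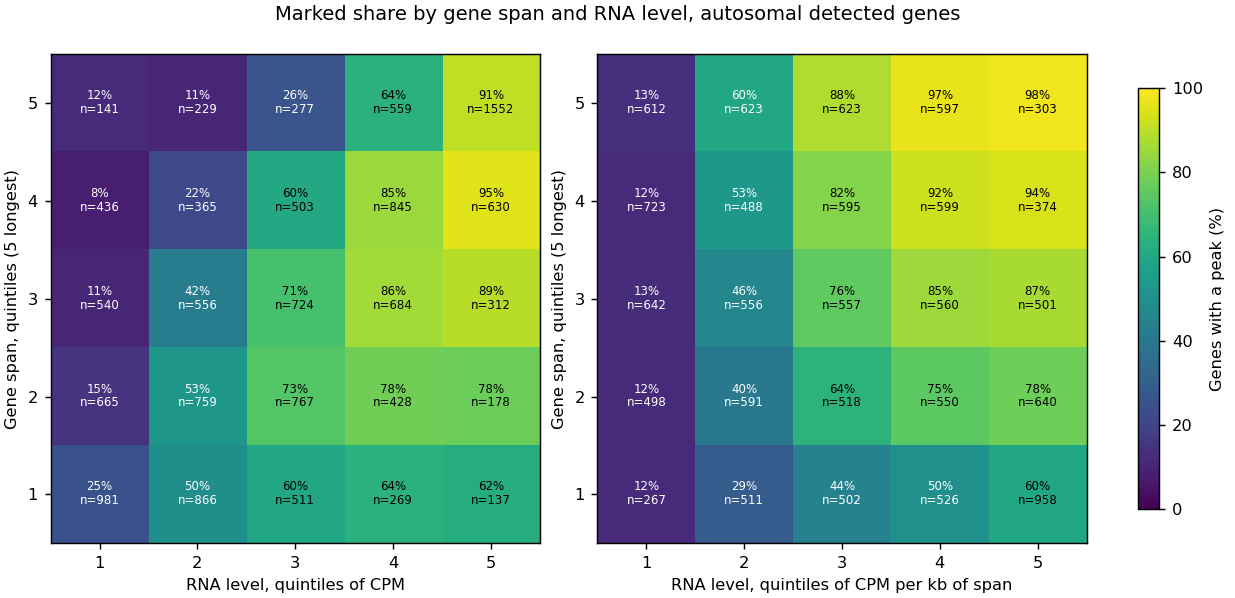
Percent of detected autosomal genes with a peak (colour and number, with n genes) by quintiles of genomic span (y axis, 5 longest) and quintiles of RNA level (x axis), by CPM (left) and by CPM per kb of span (right). Within every span quintile the share is lowest in level quintile 1, except by CPM in the longest genes (12.1% in quintile 1 and 10.9% in quintile 2), and the marked share of long, abundant genes reaches 98.0% on the per-kb scale.

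Across the 14438 detected genes CPM level and the summed length of a gene's peaks had a rank correlation of 0.63, and over single libraries the value ranged from 0.49 to 0.65. Long genes have more room for peaks and also had higher CPM, the rank correlation of CPM level and span being 0.50 over 13914 autosomal genes. The rank correlation of CPM level with the percent of the span covered by peaks was 0.55 over the same autosomal genes, and 0.53 with level per kb of span. By span quintile, the correlation of level per kb with covered percent was 0.33 in the shortest genes and 0.75 in the longest. All these values describe genes that share the same 8 libraries and the same peak list, and genes are not independent replicates.

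Cover was highest downstream of the start in each quintile of CPM, though by little in the lowest. The start was here the upstream end of the RefSeq span, for the 16081 autosomal genes with a RefSeq promoter window. Among autosomal genes of the top quintile of CPM, 18.2% of bases in the first 0.5 kb of the gene were covered, against a maximum of 56.6% at 4.75 kb and 24.8% near 50 kb, in the 1594 genes that long. In quintiles 1 to 3 the maximum lay at 1.75 kb, with 5.20, 17.1 and 31.8% of bases covered, and in quintile 4 it lay at 2.25 kb with 45.3%. In the more abundant quintiles cover thus peaked further from the start and ran further into the gene. Genes not detected did not follow this order, with 2.23% in the first 0.5 kb and 6.41% near 50 kb, in 164 genes. Near 5 kb upstream of the start, cover was 3.40 to 6.39% in the 5 quintiles. In quintile 1 it was 4.28% there and 4.72% at 1.75 kb upstream, close to the maximum of 5.20% inside the gene.

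**Figure D3:**
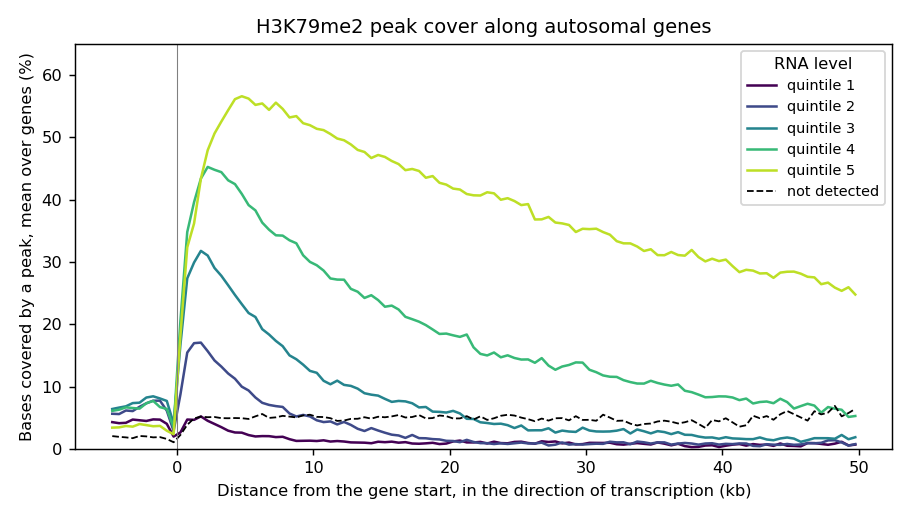
Percent of bases covered by H3K79me2 peaks (y axis, mean over autosomal genes still inside their span at that distance, in bins of 500 bp) against distance from the gene start in kb (x axis), by quintile of CPM (5 highest) and for genes not detected. The top quintile reaches 56.6% at 4.75 kb and is still at 24.8% near 50 kb, where quintile 4 is at 5.27% and quintiles 1 to 3 are at 1.86% or less. Genes not detected are at 6.41% there (164 genes), above quintile 4. The gene start is the upstream end of the RefSeq span.

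Auts2, a chromatin-associated neurodevelopmental gene, carried the longest marked sequence of all genes, 410 kb of peaks over 37.1% of its span, although its RNA was only 46.2 CPM (16.8 to 109). Dlg2, a postsynaptic scaffold of the PSD-95 family, carried 372 kb at 1474 CPM (985 to 2877). Celf2, an RNA-binding splicing regulator, carried 342 kb at 1756 CPM (1311 to 2388). The CPM level of Auts2 was above that of 86.3% of detected genes, and its range did not overlap that of Dlg2 or Celf2. The next genes were Dlgap2, Csmd1, Tmem178b, Rere, Arid1b, Foxp1 and Grin2b, with 310 to 235 kb each. Covered percents ranged from 18.0% in Csmd1 to 71.9% in Rere, a nuclear receptor corepressor.

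The 10 genes with the highest CPM were a different set. Cdk8, a kinase of the Mediator complex, stood at 149596 CPM (48953 to 378617) and was covered over 56.4% of its span. Jarid2, a Polycomb cofactor, stood at 51452 CPM (20989.5 to 84932) with 77.7% covered. Lars2, the mitochondrial leucyl-tRNA synthetase, stood at 37536 CPM (14240.1 to 76595) but had only 2 peaks over 1.06% of its span. Il31ra, a cytokine receptor subunit, stood at 25199 CPM (7782 to 56739.7) with no peak, and Sspn, sarcospan of the dystrophin complex, at 2200 CPM (1553 to 6832) with none either. These values spread widely between the 8 libraries, and whether the counted reads came from the messenger RNA of these genes was not tested. The others, Arhgap21, Gphn, Camk1d, Tmtc2 and Zc3h7a, were marked over 4.19% (Tmtc2) to 55.1% (Arhgap21) of their span.

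Of the cell type lists, the one shared by both kinds of medium spiny neuron had a peak on every detected member. All 16 detected of 17 shared markers were marked, where genes in the same deciles of CPM were marked in 88.0% of cases, so the count is near the share of their level. Pde10a, the striatal cyclic nucleotide phosphodiesterase, stood at 462 CPM (309 to 1041) with 78 peaks over 16.1% of its span. Bcl11b (Ctip2), a transcription factor of these neurons, stood at 83.8 CPM (57.1 to 195) with 67.1% covered. Adcy5, the main striatal adenylyl cyclase, stood at 216 CPM (66.8 to 545) with 57.6% covered. Replicate 8 was the highest library for all 3. The less abundant Ppp1r1b (DARPP-32) at 14.6 CPM (6.78 to 55.6) had 4 peaks over 16.7%. Gad1, which makes GABA, had 1 peak over 1.73% of its span, and that peak was also placed in another gene. Rasgrp2 was listed at 0 counts and was not marked, and whether its reads were left uncounted was not tested.

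Markers of only the D1 or the D2 type mostly had no peak. Of 7 detected D2-type markers 1 was marked (Sp9), where genes in the same deciles were marked in 66.1% of cases, and of 8 detected D1-type markers 2 were marked, against 58.2%: Sfxn1 with 4 peaks, and Chrm4 with 1 that was also placed in another gene. Penk, the enkephalin precursor, had no peak at 195 CPM (26.4 to 446), a level above that of 96.8% of detected genes. Drd2 had no peak at 87.4 CPM (29.8 to 247). Penk was highest in replicate 5 and lowest in replicate 7, Drd2 was highest in replicate 8, and both overlapped the CPM range of the marked Adcy5. Drd1 (1.94 to 29.6 CPM), Adora2a (3.07 to 62.3), Pdyn (0.866 to 31.9) and Tac1 (0 to 24.9) had no peak at medians of 6.67, 7.76, 6.46 and 1.81 CPM. Sp9, a transcription factor of D2-type neurons, had 1 peak over 9.49% of its span at 9.29 CPM (4.84 to 11.8). Per kb of span Drd1 (1.49) and Drd2 (1.29) had CPM values close to that of Adcy5 (1.43), and Penk (36.9) stood far above it.

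**Figure D4:**
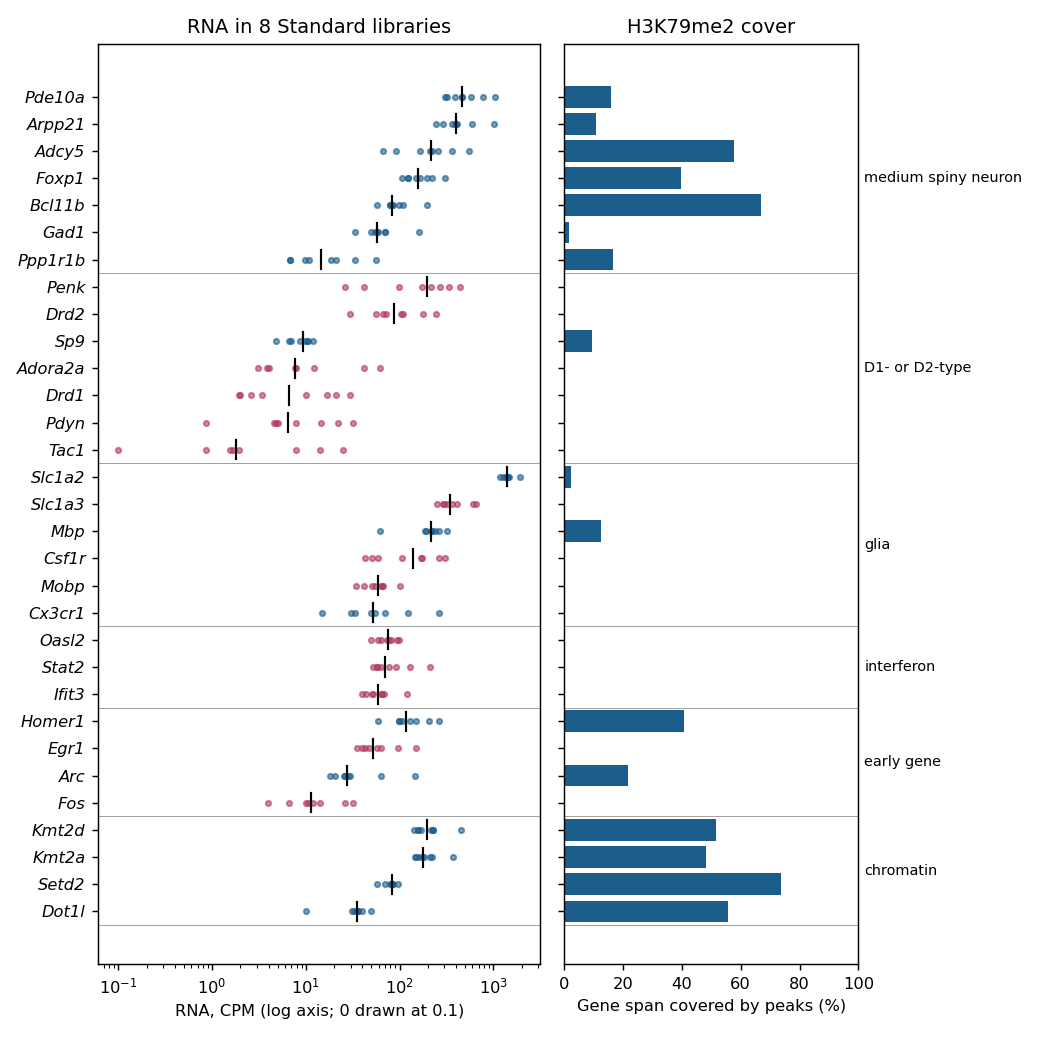
RNA in CPM (left, log axis, 1 point per Standard library, black tick the median of 8; a value of 0 is drawn at 0.1) and percent of the gene span covered by H3K79me2 peaks (right), for genes of 6 kinds; blue genes have at least 1 peak in the list, red genes have none. Slc1a3 at a median of 341 CPM and Penk at 195 CPM have no cover, while Setd2 at 82.9 CPM has 73.8%; Cx3cr1 is blue with no cover because its 5 listed peaks lie outside its RefSeq span.

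Glial markers were seldom marked, the astrocyte and myelin lists at median CPM of 56.5 and 22.3 for detected members. Of 11 detected astrocyte markers 2 were marked, against 78.0% of genes in the same deciles. Slc1a2, the main glutamate transporter of astrocytes, had 7 peaks over only 2.31% of its span at 1414 CPM (1169 to 1927), and Slc4a4, a bicarbonate transporter, had 114 over 14.6% at 248 CPM (143 to 388). Slc1a3, the other astrocyte glutamate transporter, had no peak at 341 CPM (252 to 660). Slc1a2 and Slc1a3 were each highest in replicate 5, and their ranges did not overlap. Gfap was listed at 0 counts in every library and had no peak, and whether its reads were left uncounted was not tested. Of 14 myelin and oligodendrocyte markers, all detected, 2 were marked against 73.5%: Mbp, myelin basic protein, at 218 CPM (62.3 to 323) with 12.6% covered, and Cnp, with 1 peak that lay outside its span. Mobp, another myelin protein gene, had none at 58.5 CPM (34.2 to 101). Of 7 detected precursor markers only Lhfpl3 was marked, with 6 peaks all shared with another gene, against 63.5%.

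Of 10 detected microglia markers 1 was counted as marked, against 80.3% of genes in the same deciles. Csf1r, the colony stimulating factor receptor, had no peak at 139 CPM (43.2 to 309) and was highest in replicate 6. Cx3cr1, the fractalkine receptor, was the marked member at 51.6 CPM (14.7 to 262), but all of its 5 peaks were also placed in another gene and covered none of its span. None of 12 detected endothelial and mural markers was marked, against 52.3%, the most abundant being the VEGF receptor Flt1 at 39.2 CPM (13.5 to 79.3). None of 9 detected striatal interneuron markers was marked, against 46.0%, with Nos1 at 23.0 CPM (3.37 to 82.9) and Sst at 8.71 CPM (0 to 102.8).

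The picture was alike against genes of the same quintile of CPM and the same quintile of span. The shared medium spiny neuron list stood at 100.0% against 87.4% of such genes. The astrocyte list stood at 18.2% and the myelin list at 14.3%, each against 75.3%. The D2-type list stood at 14.3% against 63.9% and the D1-type list at 25.0% against 57.7%. Markers of cells that should be scarce in a punch of accumbens were detected in part. Of 7 detected cortical excitatory neuron markers 1 was marked (Cux2, 46.8 CPM, 11.2% covered), against 60.8% of genes in the same deciles, and Slc17a7, the vesicular glutamate transporter of cortical neurons, had none at 108 CPM (49.5 to 144). None of 5 detected dopamine neuron markers was marked, where genes in the same deciles were marked in 39.8% of cases, and none of 6 erythroid and blood markers, against 37.5%. Lists of 5 and 6 detected genes are too small to read a count of 0 as a depletion, and 1 of the 10 listed blood markers lies on a sex chromosome. Ependymal and choroid plexus (6 detected), muscle (6), germ cell (4) and hepatocyte (3) markers had no marked member either, where shares of 17.7, 27.2, 26.9 and 10.6% at the same level leave a count of 0 near the background in lists this small.

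Genes of transcription elongation and of histone methylation were nearly all marked. Of 27 detected genes of transcription elongation and DOT1L partners 26 were marked, against 77.4% of genes in the same deciles of CPM, and of 37 detected histone methyltransferase and demethylase genes 36 were, against 80.4%. Dot1l itself stood at 35.6 CPM (10.1 to 49.7) with 18 peaks over 55.7% of its span. Setd2, which trimethylates H3K36, stood at 82.9 CPM (57.0 to 95.7) with 73.8%. Dot1l was lowest in replicate 5 and the other 7 libraries lay between 31.1 and 49.7 CPM. Mllt3 (AF9), a reader that recruits DOT1L, had 139 peaks over 56.6% at 107 CPM (32.0 to 348), whereas Mllt6 (AF17) was the unmarked member at 56.9 CPM (8.42 to 71.1). Kmt2a and Kmt2d, H3K4 methyltransferases, stood at 177 CPM (145 to 375) and 195 CPM (144 to 453) with 48.2 and 51.5% covered, and Kmt5c was the unmarked methyltransferase, at 5.79 CPM (0 to 11.6).

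Most groups of basic cell function were marked above the share of their level. Cytosolic ribosomal protein genes stood near that share by CPM, with 4 of the 80 listed members on a sex chromosome. They stood below it per kb of span and above it among genes of the same level and span quintiles. Of 71 detected mitochondrial ribosomal protein genes 57 were marked, 80.3% against 44.1% of genes in the same deciles, at a median of only 3.20 CPM. Of 76 nuclear genes of the respiratory chain 64 were marked, 84.2% against 59.4%, of 37 proteasome genes 32, 86.5% against 63.9%, of 27 spliceosome genes 26, 96.3% against 73.8%, and of 60 chaperone genes 50, 83.3% against 68.0%. Against genes of the same level and span quintiles the mitochondrial ribosomal list stood at 80.3% to 52.2%. Among genes in the same deciles of CPM per kb of span 69.2% were marked for this list. That share was 71.5% for respiratory chain, 71.4% for proteasome, 73.1% for spliceosome and 71.8% for chaperone genes, so the gaps were narrower on that scale. Peaks also placed in another gene were counted here too, such as all 35 of Atp5o. Zinc finger protein genes (Zfp symbols) were marked in 230 of 327 detected cases, 70.3% against 49.7%, and cell cycle genes in 8 of 16, 50.0% against 26.6%, at a median of 0.969 CPM. Cytosolic ribosomal protein genes were marked in 46 of 71 cases, 64.8% against 67.9% by CPM and 71.4% per kb of span. Among genes of the same level and span quintiles 59.8% were marked. Many cytosolic ribosomal protein genes have near-identical pseudogenes with which reads can be shared. Housekeeping genes were marked in 14 of 17 cases, 82.4% against 75.8%, such as Actb, with 1 peak over 5.47% at 369 CPM (234 to 506).

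Synaptic scaffold and GABA genes were marked at about the share of their level of CPM, with sex-chromosome members included. Release, glutamate receptor, channel and guidance genes stood below it by CPM, also with these members included. Per kb of span all of these but the potassium channels stood above it, so the direction depended on the scale. Members on a sex chromosome numbered 2 for scaffold, 2 for release, 3 for GABA, 1 for glutamate receptor and 3 for guidance genes. The calcium and sodium channel list and the potassium channel list had 1 each. Of detected X-linked genes only 6.62% were marked, and shares without these members are not given here. Of 21 postsynaptic scaffold genes 18 were marked, 85.7% against 85.5% of genes in the same deciles, and of 23 presynaptic release genes 18 were, 78.3% against 86.9%. Snap25, a SNARE of vesicle fusion, stood at 548 CPM (330 to 631) with 51.9% covered. Syt1, the calcium sensor of release, stood at 893 CPM (739 to 2205) with 24.1%. Shank1, a postsynaptic scaffold, had no peak at 454 CPM (199.6 to 825), a median within the range of Snap25. Glutamate receptor genes were marked in 18 of 25 cases, 72.0% against 82.8%, with Grin2b, an NMDA receptor subunit, at 704 CPM (605 to 1058) and 51.0% covered. Gria1, an AMPA receptor subunit, stood at 558 CPM (415 to 792) and 42.1%, and Grm8, a presynaptic metabotropic receptor, had no peak at 99.6 CPM (58.5 to 144). GABA genes were marked in 17 of 24 cases, 70.8% against 71.1%, calcium and sodium channels in 23 of 35, 65.7% against 72.2%, potassium channels in 34 of 69, 49.3% against 61.8%, and axon guidance genes in 40 of 66, 60.6% against 68.5%. Per kb of span the share at the same level was lower, 73.5% for scaffold, 70.9% for release, 65.7% for glutamate receptor, 57.4% for GABA, 60.7% for calcium and sodium channel, 54.8% for potassium channel and 58.0% for guidance genes. All of these lists but the potassium channels then stood above it. Cplx2, complexin of vesicle release, had no line in the list at 245 CPM (118 to 403), yet peaks listed for other features covered 32.0% of its span. In all, 95 unmarked genes had some cover of this kind, and 498 marked genes had none of their RefSeq span covered.

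Interferon-stimulated, immediate early, neuropeptide and replication histone genes were marked below the share of their level. None of 20 detected interferon-stimulated genes was marked, against 75.1% of genes in the same deciles, at a median of 19.9 CPM. Oasl2, an antiviral oligoadenylate synthetase-like protein, stood at 74.7 CPM (49.9 to 97.9). Stat2, a transducer of interferon signals, stood at 70.4 CPM (51.6 to 211). Ifit3, an interferon-induced antiviral protein, stood at 58.2 CPM (39.3 to 120). The CPM ranges of all 3 overlapped that of the marked Bcl11b. Immediate early genes were marked in 7 of 18 cases, 38.9% against 67.6%: Homer1 at 118 CPM (59.0 to 266) with 40.6% covered and Arc at 27.3 CPM (18.2 to 145) with 21.6% had peaks, and Egr1 at 52.2 CPM (35.4 to 152) and Fos at 11.2 CPM (3.93 to 32.0) had none. Arc, Egr1 and Fos were each highest in replicate 5. None of 13 detected neuropeptide genes was marked, against 37.6%. Replication histone genes were marked in 4 of 36 cases, 11.1% against 21.2%.

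**Figure D5:**
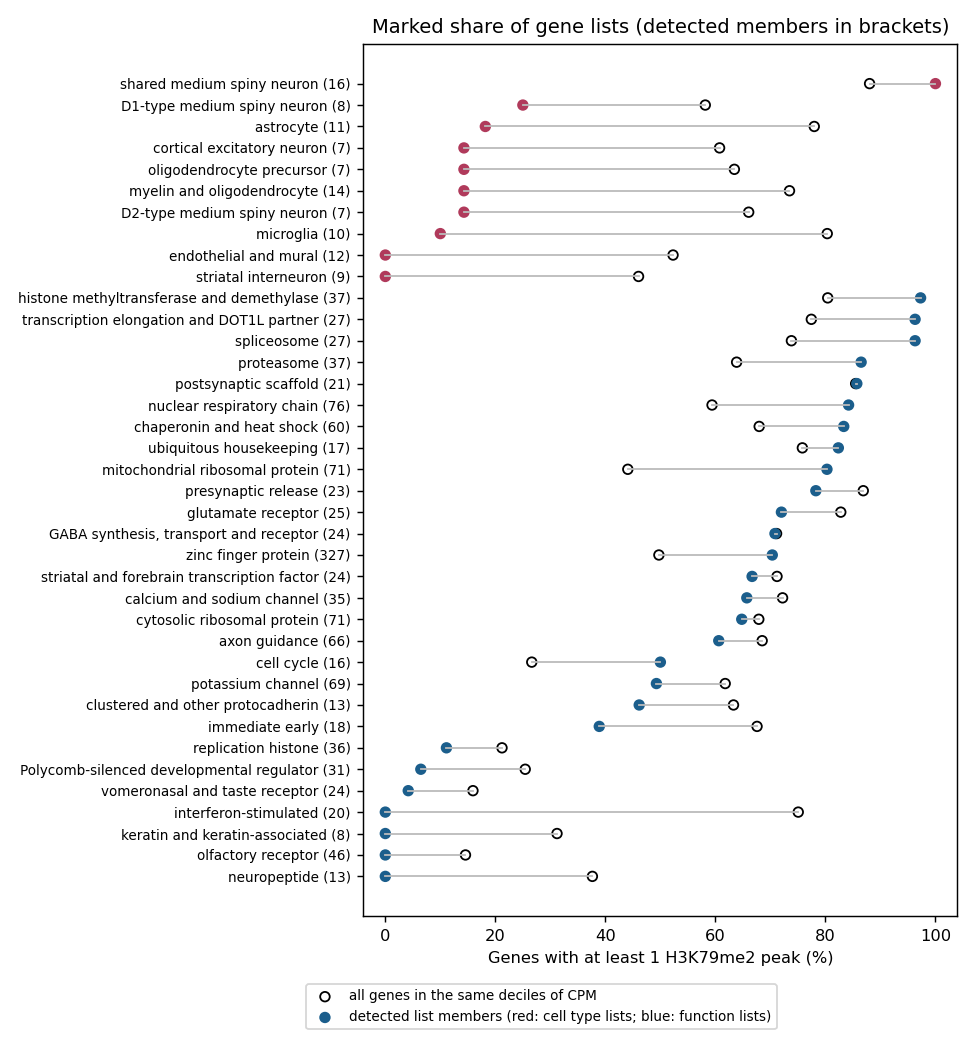
Percent of detected list members with at least 1 H3K79me2 peak (filled; red for cell type lists, blue for function lists) and the percent among all genes of the same deciles of CPM (open), for lists with at least 7 detected members, whose number is in brackets. The shared medium spiny neuron list is at 100.0% and the interferon-stimulated list at 0%, where genes of their levels stand at 88.0% and 75.1%.

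Genes of silent programmes were seldom marked. Of 31 detected developmental regulators that Polycomb is known to silence in many tissues 2 were marked (Wnt7a and Wnt5b), against 25.4% of genes in the same deciles; the list has 101 members. None of 1105 olfactory receptor genes was marked, 46 of them detected, at levels where 14.6% of genes were marked. Of 329 vomeronasal and taste receptor genes 1 was marked (Tas1r1), with 24 detected at levels where 15.9% of genes were marked, and of 105 keratin genes none, with 8 detected against 31.2%. Most genes of these lists were not detected, and of all genes not detected 8.42% were marked. Striatal and forebrain transcription factors were marked in 16 of 24 cases, 66.7% against 71.2% by CPM and 61.3% per kb of span. Of 13 detected protocadherins 6 were marked, 46.2% against 63.3%, and 33 undetected ones were marked as well, such as Pcdhga3 with 41 peaks, all of them also placed in other genes.

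Of the 1444 genes in the top decile of CPM 141 had no peak, 19 of them on the X chromosome. Per kb of span the count was 423, and with detection from 100 counts it was 86. The 122 autosomal ones had a median span of 106 kb, where the marked genes of that decile had 144 kb. Of autosomal genes under 30 kb in that decile 22.6% had no peak, of those over 300 kb 11.8%, and of all 8.62%. Beside Il31ra and Sspn, abundant examples were Dnah7b, an axonemal dynein heavy chain, at 668 CPM (391 to 2213), Apoe, the glial apolipoprotein, at 465 CPM (265 to 1154), and Sparcl1, an astrocyte matrix protein, at 430 CPM (295 to 974). Apoe, Sparcl1 and Dnah7b were each highest in replicate 6. Their median CPM was above that of the marked Pde10a in every case but Sparcl1, and per kb of span all 3 lay above its 1.00 CPM, from 2.17 for Dnah7b to 91.7 for Apoe.

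The X chromosome stood apart. Of 514 detected X-linked genes 34 were marked, 6.62% (Wilson 95% interval 4.77 to 9.10%), where the 19 autosomes ranged from 52.8 to 64.0% and together stood at 58.0%. The list held 110 peaks on X, 0.0934% of all its peaks, against 3000 to 10419 per autosome, and the list of the ELS condition held 15. On X 514 of 931 genes were detected, with a median CPM of 6.03, and on autosomes 13914 of 20072, with a median of 7.60. In the top quintile of CPM 17 of 78 X-linked genes were marked. Il1rapl1, a synaptic adhesion protein, had no peak at 643 CPM (567 to 885) and Gria3, an AMPA receptor subunit, had none at 234 CPM (87.6 to 282). The marked X-linked genes had a median of 0.794% of their span covered, against 19.4% for marked autosomal genes. Huwe1, a ubiquitin ligase, had 3 peaks over 0.666% of its span at 249 CPM (181 to 471). All libraries were labelled male, and whether X-linked regions were treated like autosomal ones when the authors called peaks was not tested.

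Of 574 marked genes that were not detected, 525, which is 91.5%, had every one of their peaks also placed in another gene, against 15.1% of marked detected genes. No count at all was recorded for 469 of them. The longest marked were Gm37013 (97.3 kb of peaks), Gse1, a coiled-coil chromatin protein, with 92 peaks over 23.4% of its span, and Ankrd11, a chromatin regulator, with 24 peaks of 78.0 kb in all. Both Gse1 and Ankrd11 were listed at 0 counts in all 8 libraries, and every peak of theirs was shared with another gene. Galnt2, Lrrtm3, Zfp644, Raly, Pcdhga3, Pcdhga4 and Pcdhga5 followed, with 74.8 to 53.9 kb. In 30 of these genes no peak was shared, among them Celf1, an RNA-binding protein, with 20 peaks over 67.9%, Arhgap5 with 21 peaks of 34.7 kb in all and Rgmb with 9 over 61.1%. A count of 0 is what the deposited table lists, and whether reads of these genes were left uncounted was not tested.

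Promoters of marked genes held more CG dinucleotides than those of unmarked genes, also at a like level. RefSeq (GRCm38.p6) gave the 250 bases before and 50 after the start for 16081 autosomal genes. The start of these windows can lie inside the RefSeq span, as for Apoe and Bcl11b. It is then not the start used for the cover profile, which is the upstream end of the span. The median number of CG dinucleotides, which read the same on both strands, was 23 in the 300 bases of marked detected genes, 12 in unmarked detected genes and 3 in genes neither detected nor marked, with 14 over all. In the top quintile of CPM the medians were 26 and 15, and in the lowest quintile 21 and 8. At 15 or more CG, 92.9% of 1710 genes in the top quintile were marked, against 74.3% of 140 genes with under 5, and in the lowest quintile these shares were 31.3% of 819 and 4.09% of 635. TATAAA on either strand (TATAAA or TTTATA) occurred in 5.60% of these windows of marked detected genes, 11.0% of unmarked detected genes and 13.3% of all windows. A peak lay over the window itself in 9.58% of marked and 0.0655% of unmarked detected genes.

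Promoters of 3 marked genes (Camk2b, Dot1l and Bcl11b) and 3 unmarked genes (Apoe, Ifit3 and Stat2) are shown as examples of higher and lower CG content. The genes were chosen with their values known, and no marked gene with under 5 CG is among them. Each is the 300 bases from RefSeq on the strand of transcription, with CG in capitals. The Camk2b window, chr11:6065699-6065998 on the minus strand, holds 51 CG, and the Dot1l window, chr10:80754953-80755252 on the plus strand, holds 49. Bcl11b, chr12:108003365-108003664 on the minus strand, holds 9, below the median of 26 for marked genes in the top quintile of CPM. Apoe, chr7:19699139-19699438 on the minus strand, holds 10 and Ifit3, chr19:34583279-34583578 on the plus strand, holds 1. Stat2, chr10:128270248-128270547 on the plus strand, holds 22, above the median of 15 for unmarked genes in the top quintile of CPM. No peak of the list lay over any of the 6 windows.
Camk2b: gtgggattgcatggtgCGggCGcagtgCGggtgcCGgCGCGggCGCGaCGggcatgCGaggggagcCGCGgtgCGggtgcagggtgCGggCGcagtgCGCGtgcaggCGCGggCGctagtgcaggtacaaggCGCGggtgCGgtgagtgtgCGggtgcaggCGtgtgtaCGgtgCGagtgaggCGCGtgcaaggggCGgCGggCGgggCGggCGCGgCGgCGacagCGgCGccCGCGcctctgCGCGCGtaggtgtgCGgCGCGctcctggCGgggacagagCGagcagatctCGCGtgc
Dot1l: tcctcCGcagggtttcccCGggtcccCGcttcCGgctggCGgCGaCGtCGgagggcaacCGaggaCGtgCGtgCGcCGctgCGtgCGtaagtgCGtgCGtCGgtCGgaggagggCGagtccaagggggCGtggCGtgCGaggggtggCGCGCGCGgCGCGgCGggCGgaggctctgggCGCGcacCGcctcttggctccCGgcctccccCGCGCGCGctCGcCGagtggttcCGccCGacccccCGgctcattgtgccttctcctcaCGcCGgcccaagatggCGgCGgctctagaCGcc
Bcl11b: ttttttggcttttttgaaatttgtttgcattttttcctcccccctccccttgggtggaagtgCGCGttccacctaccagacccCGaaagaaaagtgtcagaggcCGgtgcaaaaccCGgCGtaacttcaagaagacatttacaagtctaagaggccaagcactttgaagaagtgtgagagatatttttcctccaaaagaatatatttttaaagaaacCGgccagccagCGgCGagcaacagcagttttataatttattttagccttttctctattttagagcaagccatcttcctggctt
Apoe: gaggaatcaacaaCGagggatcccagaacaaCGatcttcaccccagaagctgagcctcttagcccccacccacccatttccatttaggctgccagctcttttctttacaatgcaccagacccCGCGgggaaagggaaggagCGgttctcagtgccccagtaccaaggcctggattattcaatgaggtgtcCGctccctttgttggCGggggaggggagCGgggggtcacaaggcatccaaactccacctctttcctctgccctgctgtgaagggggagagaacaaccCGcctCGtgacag
Ifit3: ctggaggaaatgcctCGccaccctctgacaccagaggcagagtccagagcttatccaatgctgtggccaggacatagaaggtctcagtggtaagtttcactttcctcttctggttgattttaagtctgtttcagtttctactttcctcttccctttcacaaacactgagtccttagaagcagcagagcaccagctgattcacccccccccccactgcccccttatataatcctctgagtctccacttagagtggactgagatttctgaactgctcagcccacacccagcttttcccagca
Stat2: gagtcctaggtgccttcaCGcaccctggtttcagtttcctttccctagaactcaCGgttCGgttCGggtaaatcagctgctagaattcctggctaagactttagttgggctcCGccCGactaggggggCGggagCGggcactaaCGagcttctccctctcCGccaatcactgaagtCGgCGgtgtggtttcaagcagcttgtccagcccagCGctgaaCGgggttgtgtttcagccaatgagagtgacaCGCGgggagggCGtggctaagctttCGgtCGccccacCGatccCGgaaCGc

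Camk2b, a subunit of the synaptic calcium/calmodulin-dependent kinase, stood at 247 CPM (167 to 879) with 56.4% of its span covered, and Apoe at 465 CPM (265 to 1154) with none.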

How the data were processed

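RNA was from 8 Standard GFP libraries and chromatin from 9 Standard H3K79me2 libraries, all from nucleus accumbens. The deposited read counts per Ensembl gene are raw; the submitters' processing notes name FastQC, HISAT2, featureCounts, DESeq2 and the build mm10, with no role or order. The peaks, with the authors' fold ratio and q-value, are 1 deposited list per rearing condition; the caller and any pooling of libraries were not given in the sources used here. TMM factors (edgeR 4.0.16, R 4.3.3) scaled CPM; a level is the mean over libraries of log2(CPM + 0.1). A level per kb was planned from exon lengths, which were not used here, so CPM and CPM per kb of genomic span (RefSeq, GRCm38.p6) stand in. Of 52636 IDs, 21255 matched a RefSeq protein-coding nuclear gene by symbol, 401 by synonym; 20 with shared symbols were left out. The matching by synonym and the TATAAA search over the whole promoter window were settled after first results had been seen. Columns were matched to libraries by name.

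Members, lists and named genes were chosen with earlier results of these data known. The genes named are the 10 highest in level, the 10 highest without a peak, the 10 with the greatest marked length, the 10 such genes not detected, the leading members of each of 45 lists and a short fixed set; Camk2b, Setd2, Gria1, Gria3, Huwe1, Celf1, Arhgap5, Rgmb and other examples were added after their values were seen, and a few genes that the rule would name are not reported here. No test or p-value was used, since there is 1 peak list and genes are not replicates; the spread is the range or SD of a value over the 8 libraries. Depth was 0.314 to 9.8 M counts. A gene without a peak is one for which this list holds none, which does not show that the mark is absent. The scripts were tested on simulated data. Alternatives changed the normalization, pseudocount, count minimum, libraries, peak threshold and the rule joining peaks to genes.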

Additional observations from a re-analysis of the deposited data

Results flagged for a closer look

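Of 84 genes named with their values in each library, 10 had a library that stood apart from the other 7 by Dixon's 95% limit on the log2(CPM + 0.1) scale, which chance passes in about 1 in 20 groups. On the CPM scale itself 24 genes passed the limit, 23 of them by a high library, which was replicate 6 in 17 genes, such as Sst (102.8 CPM). On the log2 scale replicate 6 was the high library for Sspn (6832 CPM), Arid1b (418.6), Kmt2a (374.5), Kmt2d (453.2) and Syt1 (2204.8). Its TMM factor was 0.558, the lowest of the 8, beside 4.67 M counts; the part of this factor in the high values was not tested. Replicate 5, with 0.546 M counts, was the low library for Mbp (62.32 CPM), Dot1l (10.11), Mllt6 (8.422) and Kmt5c (0, no reads) and the high library for Slc1a2 (1927 CPM). The marked or unmarked state of these genes does not use RNA.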

How the results depend on the processing

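No paired analysis was possible because the results come from no test and there is 1 peak list for the condition. Of 234 recomputed summary values 186 moved by less than the SD over libraries, or for counts by less than 1.5 times. They include the number of list members with a peak, which uses no RNA and could not move where only the RNA handling changed. The share marked in the top quintile became 82.0% with peaks at or above the median fold, 54.0% with promoter peaks within 1 kb, 83.5% with at least 2 peaks, 75.1% per kb of span and 73.2% with covered percent and level per kb of span. In the lowest quintile it became 5.92% with detection from 1 count, 49.7% from 100 counts, 7.79% with promoter peaks, 8.73% with 2 peaks, 8.76% with covered percent and level per kb, and 6.13% with peaks placed in 1 gene only. Among genes not detected it became 10.6%, 13.7%, 4.75%, 6.44%, 7.47% and 0.719% in that order, 6.84% with the higher fold, 9.31% on autosomes and 7.47% by covered bases.

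The rank correlation became 0.53 from 100 counts, 0.36 with promoter peaks, 0.46 per kb of span and 0.52 with covered percent. Genes of the top decile with no peak numbered 86 from 100 counts, 625 with promoter peaks, 423 per kb of span and 461 with covered percent, and not detected genes with a peak numbered 1537, 324 with promoter peaks and 49 with peaks placed in 1 gene. The median log2 level of marked genes became 4.23 from 100 counts, 4.16 with 2 peaks, 4.23 with peaks placed in 1 gene, and on the per-kb scale -0.91, or -0.88 with covered percent. That of unmarked genes became 1.24 for the log2 of the median CPM, 1.67 and 0.43 with pseudocounts of 1 and 0.01, -0.31 and 2.95 from 1 and 100 counts, 1.17 without libraries under 1 M counts, 1.21 with the higher fold, 1.94 with promoter peaks, and -2.27 and -2.25 per kb. List members with a peak numbered 526 of 3221 with promoter peaks.

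Leaving out each library in turn gave 87.1 to 87.7% in the top quintile, 15.5 to 20.7% in the lowest quintile, 8.30 to 8.65% for genes not detected, a correlation of 0.61 to 0.64, 134 to 143 top-decile genes with no peak, 577 to 620.0 not detected genes with a peak, and median levels of 3.85 to 4.02 and 0.86 to 1.21. The 880.0 list members with a peak stayed the same by construction, since that count uses no RNA. CPM not divided by length is the scale reported, so it was not run again, and the causes of these shifts were not tested.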
